A study of Mus musculus with 12 samples.

Results

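Among the genes that lipopolysaccharide (LPS) raised in mouse airway macrophages (AMs), 6 had been picked on their lower level in cells of Scnn1b-Tg mice than of wild-type (WT) mice when both were kept in medium. They are Plpp1, Gk, Serpinb9, Piwil2, Smim3 and Fam181b, 6 of the 20551 genes in the deposited count table, and all 6 passed the filter on low counts with 13729 genes tested. Because their level in medium and their rise with LPS chose them, the difference of the genotypes in medium and the changes with LPS are given here as a description, with no test. The comparison of the genotypes after LPS used other libraries, although from the same pools of cells.

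LPS is sensed by macrophages through Toll-like receptor 4, which switches on NF-kB, AP-1 and interferon regulatory factors and so changes the transcription of many genes. The 6 genes belong to no common pathway. Plpp1 encodes a membrane phosphatase that removes the phosphate from lipid mediators such as lysophosphatidic acid and sphingosine-1-phosphate. Gk encodes glycerol kinase, which makes glycerol-3-phosphate from glycerol. Serpinb9 encodes an intracellular serpin that inhibits granzyme B and so guards cells against this protease. Piwil2 encodes a PIWI protein of the Argonaute family, known mainly from male germ cells, where PIWI proteins bind small RNAs that silence transposons. Smim3 encodes a small membrane protein and Fam181b a protein of little described function.

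All mice were of the C57BL/6 strain and 6 weeks of age. Scnn1b-Tg (Tg) mice carry a transgene for the beta subunit of the epithelial sodium channel under the promoter of the club cell secretory protein, which acts in airway epithelium, and develop mucus obstruction, whereas WT littermates carry no transgene. Each pool held cells of 3 to 4 animals, and every one of 6 pools (WT 16, WT 17, WT 18, Tg 17, Tg 18 and Tg 19) was divided and kept for 12 h in medium alone or with 100 ng/ml LPS of Pseudomonas aeruginosa. This gave 4 groups of 3 libraries, namely WT medium, Tg medium, WT LPS and Tg LPS. The labels describe lavage cells that adhered to plastic, the study's methods describe AMs sorted from digested lungs, and which of these applies cannot be told apart here.

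Libraries held 48.2 to 60.9 M estimated counts, and values are given as counts per M counts (CPM) scaled by TMM factors. The summed level of 12 AM markers was 27500 to 60100 CPM, most of it Lyz2 and Chil3, and all 12 were present in every group. Single markers moved in opposite ways with LPS, which the sum does not show. Mean Siglecf was 115 CPM (WT) and 118 CPM (Tg) in medium, against 11.1 CPM (WT) and 6.47 CPM (Tg) after LPS. Means of Fabp4, Pparg, Mertk and Krt79 were also lower after LPS in both genotypes, whereas those of Marco and Car4 were higher. The summed level of 9 LPS response genes was 277 to 535 CPM in medium and 8350 to 11100 CPM in LPS. Scnn1b itself lay at 0 to 0.755 CPM in every group. Xist, the RNA expressed from the inactive X chromosome in females, had 0 counts in both libraries of pool Tg 19 and 211 to 1439 counts in the other 10 libraries, while the methods give female mice for sorted cells. It also varied among those 10, at 4.21 to 6.82 CPM in WT 16 and WT 17 and 22.4 to 24.7 CPM in WT 18 and Tg 18. Tg 17 had 24.6 CPM in medium and 8.08 CPM in LPS. Ddx3y, Eif2s3y, Kdm5d and Uty of the Y chromosome were not in the count table, so the sex of the pools was not settled. Without pool Tg 19, log2 differences of Tg from WT in the 6 genes were -1.26 (Fam181b) to -0.48 (Smim3) in medium and -0.66 (Fam181b) to 0.18 (Plpp1) in LPS, and again 0 of the 6 passed as lower in LPS. In 3 groups the library numbered 17 differed more from the other libraries of its group than those from each other, with a chi-square per gene of 34 and 38.3 against 11 in WT LPS, 33 and 30.9 against 12.8 in Tg LPS, and 16.9 and 20.1 against 8.58 in WT medium. Without any single library, 0 of the 6 genes passed as lower in Tg LPS.

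The upstream sequences of 3 of the 6 genes, taken from the RefSeq promoter table (GRCm38.p6), are shown because the 6 genes rose together with LPS. Each runs 5' to 3' on the gene's strand and ends just before an annotated exon, so that no exon base is printed. Capitals mark a match to the interferon response element, searched on either strand as GAAA, any 2 bases and GAAA. The Serpinb9 window (chr13:33004291-33004540, + strand, 250 bases) lies in the first intron of its longer transcript and just before the first exon of a shorter one. The Gk window is chrX:85776820-85777069 (- strand, 250 bases), and the Fam181b window is chr7:93079629-93079864 (+ strand, 236 bases).
Serpinb9: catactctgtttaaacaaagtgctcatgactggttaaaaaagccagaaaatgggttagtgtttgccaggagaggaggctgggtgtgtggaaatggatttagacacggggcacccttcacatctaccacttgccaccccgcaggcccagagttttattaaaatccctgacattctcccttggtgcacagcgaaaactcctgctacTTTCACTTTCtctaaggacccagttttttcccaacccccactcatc
Gk: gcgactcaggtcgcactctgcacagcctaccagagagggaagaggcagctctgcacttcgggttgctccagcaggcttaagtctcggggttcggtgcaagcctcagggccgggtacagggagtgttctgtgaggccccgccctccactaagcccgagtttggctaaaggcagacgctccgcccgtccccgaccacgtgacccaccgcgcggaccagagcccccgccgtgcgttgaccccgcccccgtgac
Fam181b: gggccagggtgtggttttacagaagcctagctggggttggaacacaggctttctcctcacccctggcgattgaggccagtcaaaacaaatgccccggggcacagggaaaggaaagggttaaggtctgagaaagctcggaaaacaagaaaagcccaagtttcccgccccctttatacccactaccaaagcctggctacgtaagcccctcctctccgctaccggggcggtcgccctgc

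Both strands of each window were searched for 5 motifs. The Serpinb9 window held 1 match, the reverse complement of the interferon response element, 46 to 37 bases before its end. Windows of 250 bases held this motif in 2.98% of 32841 promoters. No match was found in these windows to the NF-kB consensus (7.25% of promoters), AP-1 TGANTCA (6.75%), C/EBP TTNNGNAAT or ATTNCNNAA (10.2%) or CRE TGACGTCA (1.55%). These are matches of letters and do not show binding. The GC content was 47.6% for Serpinb9, 67.2% for Gk and 57.6% for Fam181b, with a median of 52.4% over all promoters. Windows were taken for these 3 genes only, and none for Plpp1, Smim3 and Piwil2.

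Plpp1 (ENSMUSG00000021759, chr13:112800792-112867894, + strand) had the largest response to LPS of the 6 genes. In medium it was at 28.4, 23.0 and 21.8 CPM in WT 16, WT 17 and WT 18, and at 11.5, 16.5 and 12.6 CPM in Tg 17, Tg 18 and Tg 19. With LPS it was at 98.2, 90.0 and 100 CPM in the WT pools and at 101, 120 and 124 CPM in the Tg pools. In medium every Tg library lay below every WT one, which is the property the gene was chosen for. In LPS the Tg libraries lay above the WT ones, although the nearest WT and Tg libraries lay side by side. The share of all genes with every Tg LPS library above every WT one was not computed, and nothing is read from this order. The fitted log2 difference of Tg from WT was -0.90 ± 0.15 (SE) in medium and 0.22 ± 0.14 in LPS (95% interval -0.10 to 0.53). The latter did not pass the test (edgeR quasi-likelihood, adjusted p = 0.879). In WT, the log2 difference of LPS from medium was 1.97 ± 0.14.

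Gk (ENSMUSG00000025059, chrX:85701937-85776819, - strand) was at 27.2, 26.7 and 24.6 CPM in the WT medium pools and at 17.9, 14.5 and 15.8 CPM in the Tg medium pools. With LPS it was at 45.9, 48.9 and 40 CPM in WT and 40.3, 35.0 and 33.9 CPM in Tg. The groups in LPS overlapped only by Tg 17, which lay just above WT 18. The log2 difference of Tg from WT was -0.64 ± 0.08 in medium and -0.23 ± 0.08 in LPS (95% interval -0.40 to -0.06, unadjusted p = 0.0116, adjusted p = 0.456 by edgeR). The difference of LPS from medium in WT was 0.78 ± 0.08. Gk is on the X chromosome, and without pool Tg 19 its differences were -0.66 ± 0.10 in medium and -0.22 ± 0.09 in LPS.

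Serpinb9 (ENSMUSG00000045827, chr13:33003250-33017957, + strand) was at 63.6, 55.8 and 53.6 CPM in WT medium and at 36, 40.2 and 34.2 CPM in Tg medium. With LPS the WT pools were at 204, 211 and 180 CPM and the Tg pools at 167, 159 and 138 CPM. Every Tg library lay below every WT library in both conditions. The log2 difference was -0.60 ± 0.10 in medium and -0.32 ± 0.10 in LPS (95% interval -0.53 to -0.10, unadjusted p = 0.00752, adjusted p = 0.382 by edgeR). The difference of LPS from medium in WT was 1.78 ± 0.10. Gzmb, which encodes the protease it inhibits, and Prf1, which encodes perforin, did not pass the filter on low counts in these cells.

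Piwil2 (ENSMUSG00000033644, chr14:70372477-70429383, - strand) was the gene with the lowest level of the 6, at 7.91, 7.11 and 8.52 CPM in WT medium and 4.93, 3.56 and 4.48 CPM in Tg medium. Its LPS libraries were at 17.4, 17.9 and 16.8 CPM in WT and 14, 11.8 and 14.6 CPM in Tg. The genotypes did not overlap in either condition, and all 12 libraries held at least 187 counts of it. The log2 difference was -0.84 ± 0.14 in medium and -0.34 ± 0.13 in LPS (95% interval -0.64 to -0.05, unadjusted p = 0.0268, adjusted p = 0.603 by edgeR). LPS differed from medium in WT by 1.14 ± 0.13.

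Smim3 (ENSMUSG00000038059, on chromosome 18) changed least. It was at 58.0, 56.7 and 54.0 CPM in WT medium and at 39.5, 40.9 and 35.9 CPM in Tg medium, and at 79.8, 73.7 and 70.5 CPM in WT LPS against 63.4, 71.1 and 64.5 CPM in Tg LPS. The LPS groups overlapped by Tg 18, which lay above WT 18. The log2 difference of Tg from WT was -0.52 ± 0.09 in medium and -0.16 ± 0.09 in LPS (95% interval -0.35 to 0.03, adjusted p = 0.803 by edgeR). In LPS this difference was -0.27 in library batch 1 and -0.06 in batch 2. LPS differed from medium in WT by 0.41 ± 0.08.

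Fam181b (ENSMUSG00000051515, chr7:93079865-93081867, + strand) showed the widest gap between the genotypes. In medium it was at 31.1, 24.9 and 38.7 CPM in the WT pools and at 12.0, 14.9 and 11.7 CPM in the Tg pools. With LPS the WT pools were at 56.8, 63.0 and 68.8 CPM and the Tg pools at 44.9, 35.3 and 45.9 CPM. Every Tg library lay below every WT library in both conditions. The log2 difference was -1.34 ± 0.16 in medium and -0.63 ± 0.16 in LPS (95% interval -0.97 to -0.28, unadjusted p = 0.0022), and the latter had an adjusted p of 0.256 by edgeR and of 0.0284 by DESeq2. LPS differed from medium in WT by 1.00 ± 0.16.

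**Figure D1:**
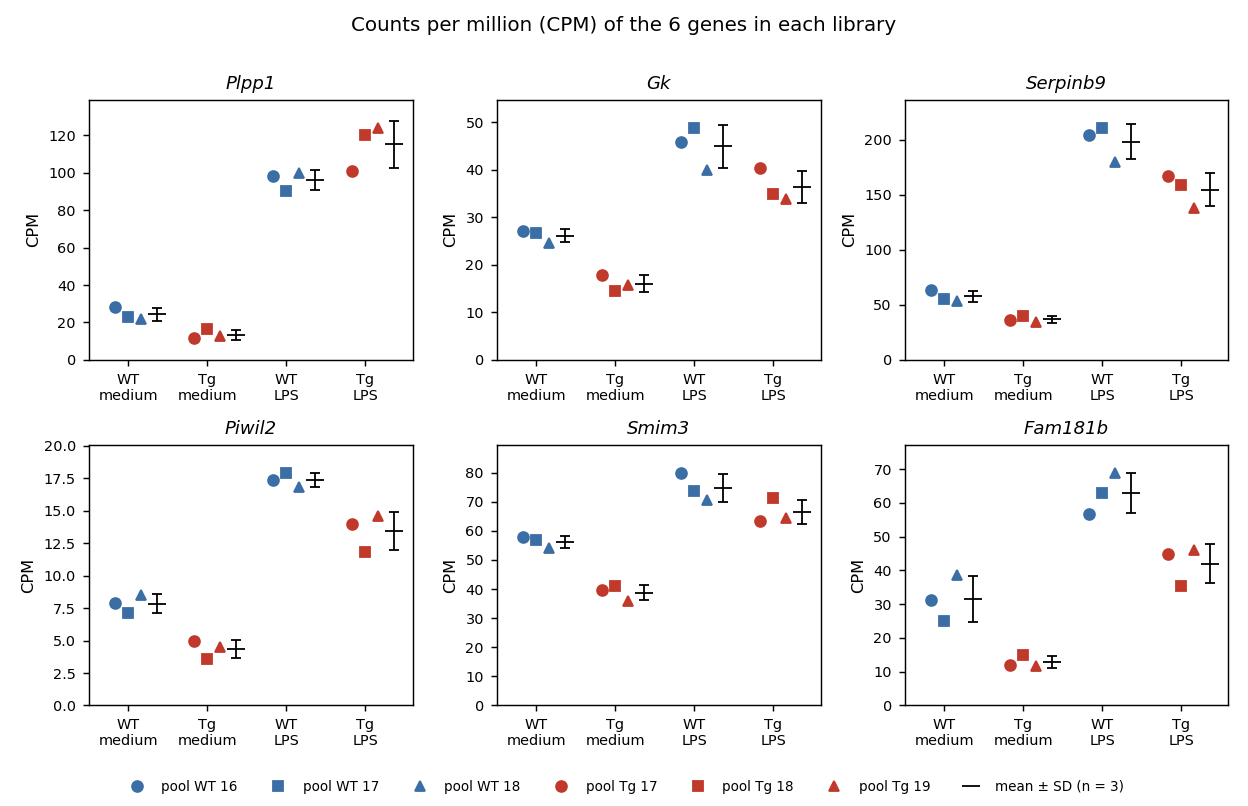
Points are CPM of each of the 6 genes in the 12 libraries (y axis, from 0), by group (x axis), with colour for the genotype and shape for the pool, and the black mark is the mean ± SD of 3 libraries. In medium all Tg points lie below all WT points for the 6 genes, and in LPS this is so for Serpinb9, Piwil2 and Fam181b, while Plpp1 is at 101 to 124 CPM in Tg against 90.0 to 100 CPM in WT.

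As means, the genes in Tg medium were at 40.8% (Fam181b) to 69.0% (Smim3) of their WT level, which is the property they were chosen for. In medium 23 of the 13729 genes passed the test as lower in Tg (0.168%) and 23 as higher (0.168%), and all 6 genes were among the former, with nothing to be read from that count. The number of lower genes fell to 1 without Tg medium 17 or Tg medium 19, to 2 without WT medium 18, to 7 without WT medium 16, to 12 without WT medium 17 and to 8 without WT LPS 18 or Tg LPS 17. In 9.38% of all genes tested every Tg medium library lay below every WT one, as in all 6 here. Among the 23, ordered by the size of the fall, Fam181b was 3rd, Plpp1 6th, Piwil2 9th, Gk 16th, Serpinb9 18th and Smim3 22nd. The last genes inside the threshold by p were Faap20 (-0.50 ± 0.09) and Gpr84 (-1.13 ± 0.20), and the first outside it were Ikbkg (-0.59 ± 0.11) and Wdr75 (-0.45 ± 0.08). Of the 23, 18 also rose with LPS in WT, the 6 described here and 12 others, where 15.5% of all genes tested rose. Both calls used the WT medium libraries, and nothing is read from that count.

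After LPS, 0 of the 6 genes passed the test between the genotypes by edgeR, which called 0 of all 13729 genes lower (0%) and 7 higher (0.051%). DESeq2 called 41 genes lower and 105 higher, and 1 of the 6, Fam181b, as lower. By an unadjusted p under 0.05 edgeR had 4 of the 6 genes as lower in Tg, namely Fam181b, Serpinb9, Gk and Piwil2, where 2.59% of all genes tested were lower by that measure. So were 9 of the 23 genes called lower in medium, and 4 of the 12 others among them that LPS also raised. The groups did not overlap, with Tg lower, for 3 of the 6 (Fam181b, Serpinb9 and Piwil2), against 3.39% of all genes. The exact two-sided permutation test gave 0.1 for these 3 genes and for Plpp1, the smallest p that 3 libraries against 3 allow, and 0.2 for Gk and Smim3. As a ratio of mean CPM, the level in Tg LPS was 67.0% of WT LPS for Fam181b, 77.6% for Piwil2 and 78.3% for Serpinb9. It was 81.1% for Gk, 88.8% for Smim3 and 120% for Plpp1. The fit, which has a batch term, gave 64.8% for Fam181b to 116% for Plpp1. The median log2 difference over all genes was 0.004. The LPS libraries came from the same pools as the medium libraries that chose the 6 genes. The shares of all genes are thus not like for like, and no conclusion is drawn from the counts of the members.

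**Figure D2:**
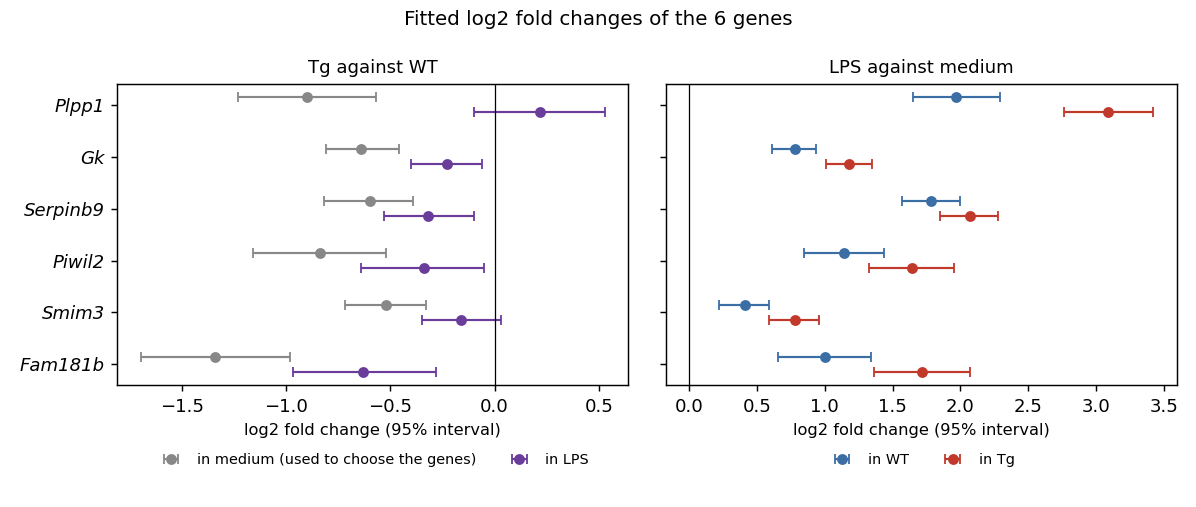
Fitted log2 fold changes with 95% intervals (x axis) of the 6 genes (y axis), on the left Tg against WT in medium and in LPS, and on the right LPS against medium in each genotype. On the left, the intervals in LPS lie below 0 for Fam181b, Serpinb9, Gk and Piwil2 and include 0 for Smim3 and Plpp1, and these intervals are not adjusted for the number of genes.

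With LPS in WT, 15.5% of all genes tested passed as higher and 16.2% as lower. All 6 genes were among the higher ones, and as they had been picked from genes that LPS raised, nothing is read from that count. In WT, mean levels went from 24.4 ± 3.55 to 96.0 ± 5.33 CPM for Plpp1 and from 57.7 ± 5.23 to 198 ± 15.9 CPM for Serpinb9 (SD, n = 3), the steepest rises, and from 56.2 ± 2.02 to 74.7 ± 4.73 CPM for Smim3, the shallowest.

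Within each pool, LPS and medium libraries came from the same cells, and each of the 6 genes was higher with LPS in 6 of 6 pools. The ratio of LPS to medium CPM was 3.45 to 4.60 in WT pools and 7.25 to 9.86 in Tg pools for Plpp1. It was 1.63 to 1.83 against 2.15 to 2.41 for Gk, 3.21 to 3.78 against 3.94 to 4.65 for Serpinb9, 1.97 to 2.52 against 2.85 to 3.33 for Piwil2 and 1.30 to 1.38 against 1.61 to 1.80 for Smim3. For these 5 genes the ranges of the genotypes lay apart, and for Fam181b they overlapped, at 1.78 to 2.53 against 2.38 to 3.93. The Tg ratios have the Tg medium libraries as their denominator, which chose the genes to be low, so no test is given. The share of all genes with ranges apart, or higher in every pool, was not computed. Nothing is read from the counts of the members.

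The rise in CPM units was of similar size in the genotypes for several of the genes. It was 31.3 ± 6.33 CPM in WT and 29.2 ± 7.56 CPM in Tg for Fam181b, 18.8 ± 3.40 and 20.4 ± 2.20 CPM for Gk, and 9.51 ± 1.27 and 9.16 ± 0.907 CPM for Piwil2 (SD, n = 3 pools each). Serpinb9 rose by 141 ± 14 CPM in WT and 118 ± 13.5 CPM in Tg. Smim3 and Plpp1 rose by more in Tg, by 27.6 ± 3.22 against 18.4 ± 2.93 CPM and by 102 ± 11.3 against 71.6 ± 5.84 CPM. Mean Smim3 in Tg LPS, at 66.3 CPM, was still below the 74.7 CPM of WT LPS. These rises subtract the medium libraries, which chose the genes to be low in Tg. No test is given, and nothing is read from the sizes of the rises. The mean Tg LPS level was 1.18 (Smim3) to 4.71 (Plpp1) times the WT medium level.

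**Figure D3:**
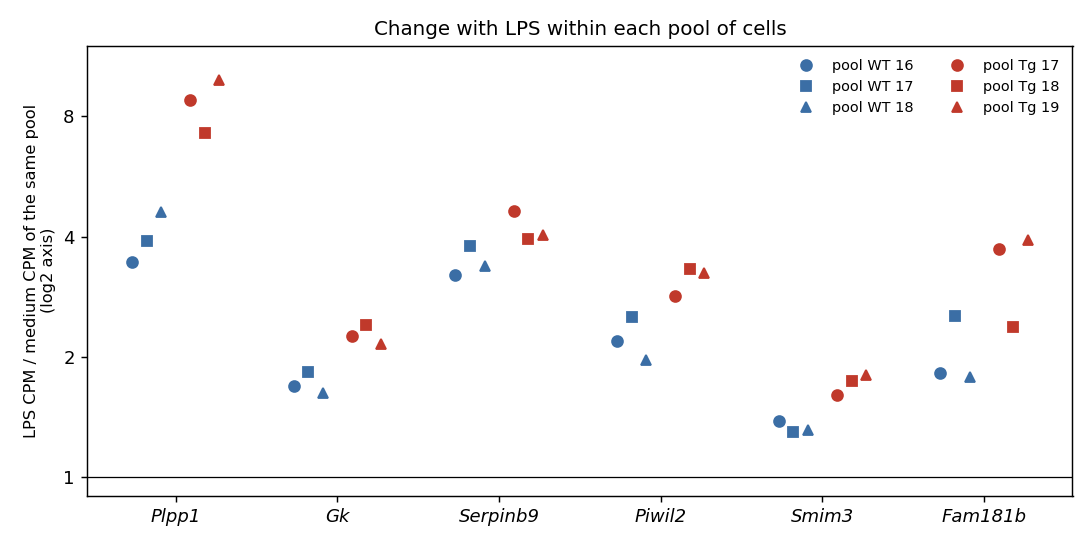
Each point is the ratio of LPS to medium CPM of 1 pool (y axis, log2 scale) for each of the 6 genes (x axis), blue for WT and red for Tg. All points lie above 1, and the Tg points lie above the WT points for 5 genes, with overlap for Fam181b. The Tg ratios are over the Tg medium libraries, which chose the genes to be low, so nothing is read from that count.

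Levels per length of exon allow the genes to be set against each other. In WT medium the order was Serpinb9 (16.5 ± 1.5 CPM per kb), Fam181b (15.8 ± 3.45), Plpp1 (13.9 ± 2.03), Smim3 (8.24 ± 0.296), Gk (3.38 ± 0.176) and Piwil2 (1.48 ± 0.134), of which the first 3 lay within each other's spread. In Tg LPS, Plpp1 (65.7 ± 6.98) came first, ahead of Serpinb9 (44.3 ± 4.25) and Fam181b (21 ± 2.92).

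For each gene, the most alike genes were sought as those with the smallest root mean square difference of centred log2 CPM over the 12 libraries. They were Nfkbie (0.18), which encodes an inhibitor of NF-kB, and Sod2 (0.19), a mitochondrial superoxide dismutase, for Plpp1. Hmox1 (0.16), heme oxygenase, and Treml4 (0.18) were most like Serpinb9. Srxn1 (0.14), sulfiredoxin, and Gss (0.16), glutathione synthetase, were most like Piwil2, and Gss (0.31) and Prdx6 (0.31), a peroxiredoxin, most like Fam181b. Gtpbp4 (0.15) and Tubb6 (0.16) were most like Gk, and Eif5 (0.09) and Srm (0.09), spermidine synthase, most like Smim3. The members themselves had standard deviations of 0.38 (Smim3) to 1.38 (Plpp1) in log2 CPM over the libraries. Among the 6 genes the closest pairs were Smim3 with Gk (0.24), Gk with Piwil2 (0.25) and Fam181b with Piwil2 (0.26), and Plpp1 with Smim3 was the farthest (1.00). The 12 libraries include the medium libraries that chose the members, which favours genes low in Tg medium and raised by LPS. Of the alike genes, Hmox1, Srxn1 and Tubb6 were themselves called lower in Tg medium and higher with LPS in WT. The libraries also share pools and treatment, and these likenesses are a description from which nothing is read.

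Genes of 4 pathways around the members were examined, none of them a member. Of 125 listed genes 69 passed the filter on low counts. In WT 23 were higher and 21 lower with LPS (edgeR, adjusted p under 0.05), where 15.5% of all genes tested were higher and 16.2% lower. These shares also apply to the counts with LPS in WT of each list below. The median log2 change was 0.11 against 0 over all genes, and 28 list genes passed in all without WT LPS 18. In medium 1 was lower in Tg and 0 higher, and in LPS 0 passed. At an unadjusted p under 0.05, 3 were higher and 7 lower in LPS, where 4.53% of all genes were higher and 2.59% lower. DESeq2 called 7 list genes in medium and 2 in LPS. Over all 13729 genes it called 278 higher and 223 lower in medium, and 105 higher and 41 lower in LPS. The gene lower in medium was Lpl, lipoprotein lipase, at 4030 CPM in WT and 2860 CPM in Tg (-0.52 ± 0.07, adjusted p = 0.0219 by edgeR), and this call was lost without any 1 of WT medium 16, WT medium 18, Tg medium 17 or Tg medium 19.

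Of the phospholipid phosphatases and genes of lysophosphatidic acid and sphingosine-1-phosphate, 22 were tested, of which 6 rose and 6 fell with LPS in WT and none differed between the genotypes (by edgeR, 1 higher in each condition at an unadjusted p under 0.05, where 7.59% of all genes were higher in medium). Plpp3, a paralog of Plpp1, rose from 130 to 307 CPM in WT (1.24 ± 0.08) and was at 138 and 335 CPM in Tg, while Plpp2 was at 22.4 to 25.2 CPM in the 4 groups. Lpar5, a receptor for lysophosphatidic acid, fell by 2.09 ± 0.41 on the log2 scale. Lpar1, another such receptor, had 0 counts in WT medium and 15 to 55 counts in WT LPS.

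Of the genes of glycerol and glycerolipid metabolism, 25 were tested, of which 7 rose and 12 fell with LPS in WT. The largest changes were falls, of Lpin1, a phosphatidate phosphatase (-2.64 ± 0.16, from 89.2 to 14.8 CPM), and of Pnpla3, a lipase (-2.32 ± 0.44, from 0.787 to 0.155 CPM). Gk2, a paralog of Gk, held at most 2 counts in any library and Gk5 lay at 3.43 to 4.50 CPM. Between the genotypes Lpl alone passed by edgeR, while DESeq2 called Lpl in both conditions and, in medium, also Lpin1 (0.69, adjusted p = 0.00239) and Agpat2 (-0.27, adjusted p = 0.0458), of which Agpat2 was named after its values were seen.

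Of the intracellular serpins and granzymes, 8 were tested, all of them serpins, of which 4 rose and 1 fell with LPS in WT. Serpinb9b, a paralog of Serpinb9, rose from 1.81 to 31.9 CPM (4.13 ± 0.29) and Serpinb8 from 5.59 to 18.6 CPM (1.73 ± 0.22). None passed between the genotypes by edgeR, with 4 lower in Tg in medium and 3 in LPS at an unadjusted p under 0.05, where 5.81% of all genes tested were lower in medium and 2.59% in LPS. Serpinb9b was at 0.670 CPM in Tg medium (-1.29 ± 0.39 against WT, adjusted p = 0.185) and 17.9 CPM in Tg LPS (-0.69 ± 0.25, adjusted p = 0.564). Serpinb1a had a difference of -0.61 ± 0.18 in medium (adjusted p = 0.179) and -1.07 ± 0.18 in LPS (adjusted p = 0.0798). DESeq2 called Serpinb1a lower in Tg in medium (adjusted p = 0.0467) and in LPS (-1.08, adjusted p = 2.58e-05), and in medium also Serpinb9b (adjusted p = 0.0101) and Serpinb8 (adjusted p = 0.00882). Serpinb1a and Serpinb1b, which the plot of serpins also shows, were named after their values were seen. The median log2 difference of the 8 genes was -0.61 in medium and -0.17 in LPS, against 0.01 and 0 over all genes tested.

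**Figure D4:**
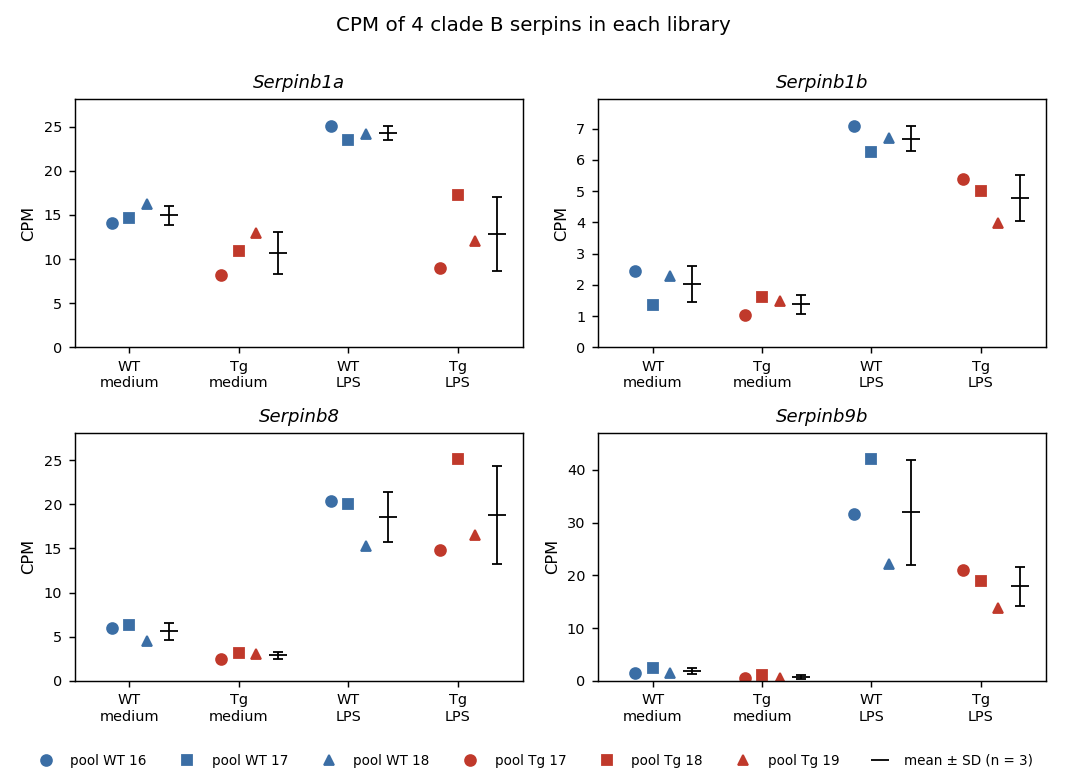
CPM (y axis, from 0) of 4 clade B serpins in the 12 libraries by group (x axis), with colour for the genotype and shape for the pool, and mean ± SD of 3 libraries in black. Serpinb9b is higher in LPS in both genotypes, with means of 31.9 CPM in WT LPS and 17.9 CPM in Tg LPS, and Serpinb1a has means of 24.3 and 12.8 CPM.

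Of the genes of the PIWI, Argonaute and piRNA pathway, 14 were tested, of which 6 rose and 2 fell with LPS in WT and none passed between the genotypes by edgeR. DESeq2 called 1 of them lower in Tg in medium, Tdrkh (-0.55, adjusted p = 0.0145), which was named after its values were seen. Mov10, an RNA helicase, rose from 9.91 to 29.2 CPM (1.58 ± 0.31) and Ago3 from 9.76 to 16.9 CPM (0.79 ± 0.12). Piwil4, a paralog of Piwil2, held at most 3 counts in any library. Ddx4, which encodes the germ cell helicase that works with PIWI proteins, did not pass the filter.

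Some counts could be shared with other genes, since strand was not used in counting. Exons of Plpp1 overlap those of Mtrex on the opposite strand by 452 bp. Mtrex lay at 82.8, 76.1, 83.1 and 76.1 CPM in WT medium, Tg medium, WT LPS and Tg LPS, with log2 differences of 0.01 or less in size in each comparison. Fam181b overlaps the antisense gene Gm9934, which held at most 23 counts in any library, and Gk overlaps Gm14764 by 84 bp, which was not analysed here.

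Markers of other cells were set beside these results. The monocyte list summed to 67.4 to 83.1 CPM in WT medium, 44.3 to 62.4 in Tg medium, 173 to 215 in WT LPS and 132 to 192 in Tg LPS, the order that the group means of all the genes but Plpp1 had. That sum was nearly all Treml4 and Ace, and only Treml4 had this order. Mean Treml4 was 57.4 CPM in WT and 33.7 CPM in Tg in medium, and 189 and 152 CPM in LPS. Mean Ace went the other way, at 14.1 and 20.1 CPM in medium and 1.1 and 1.8 CPM in LPS. The other 6 of the 8 genes in the monocyte list summed to 0.937 to 2.49 CPM in the 12 libraries. Among them were the defining Ly6c2, Ccr2 and Cx3cr1, and the part of these 6 genes in the results was not tested. The epithelial list was at 85.9 to 108 CPM in WT medium and 39.5 to 75.3 CPM in Tg medium, and at 79.8 to 124 against 35.6 to 66.4 CPM in LPS, most of it Scgb1a1 and Sftpc. The dendritic cell list was at 2.74 to 3.6 CPM in WT medium and 5.17 to 7.28 CPM in Tg medium, and at 9.37 to 10.1 against 13.4 to 20.2 CPM in LPS, most of it Ccr7, with Flt3 at no more than 0.285 CPM. The neutrophil list was at 9.51 to 14.5 against 12.6 to 19.3 CPM in medium and at 12.7 to 13.7 against 14.6 to 20 CPM in LPS. Most of it was S100a8 and Mmp8, with S100a9 at no more than 0.0951 CPM. Mean S100a8 was 2.86 CPM in WT and 4.53 CPM in Tg in medium, and 7.32 and 11.1 CPM in LPS. Mean Mmp8 was 6.14 and 11.2 CPM in medium, and 3.76 and 5.8 CPM in LPS. Ltf was lower in Tg, at 2.45 and 0.668 CPM in medium and 1.76 and 0.145 CPM in LPS. The eosinophil, T or NK cell, B cell and erythroid lists overlapped between the genotypes in both conditions, at no more than 20.5, 1.40, 1.89 and 0.301 CPM. The part of these cells in the differences between the genotypes was not tested. Lower levels per cell and fewer cells that express a gene cannot be told apart in bulk RNA.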

How the data were processed

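RNA of 12 libraries from 6 pools of AMs was sequenced by the authors (SMART-Seq v4, read pairs of 125 bp). Per the labels and methods, reads were aligned to mm10 with HISAT2, unstranded, and StringTie with GENCODE M20 gave the deposited estimated counts per gene, which were whole numbers and were used as deposited. A helper program derives such counts from coverage, so 1 read can be worth more than 1 count, and of 47985 values from 1 to 30, 55.3% left 0 or 3 on division by 5, against 40.0% for an even spread. Intervals and depth thus cover counting error only in part. The lowest count of a member was 187.

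Symbols and positions came from GENCODE M21 (mm10, 20132 of 20551 IDs). The filter on low counts was filterByExpr with a minimum count of 10 and a minimum total of 15, after which 13729 genes remained, and libraries were scaled by TMM. edgeR 4.0.16 in R 4.3.3 fitted a quasi-likelihood model (glmQLFit without the legacy option) with a term per group and per library batch (WT 16, WT 17 and Tg 17 in batch 1, the others in batch 2) to all 12 libraries. Tests were two-sided, with Benjamini-Hochberg adjustment over all genes tested and a threshold of 0.05. Log2 CPM used a prior count of 2. Alternatives were DESeq2 1.42.0, voom with limma 3.58.1, other filters, scalings and blocks, counts divided by 5, and each library left out. Pools pair the LPS and medium libraries, whose deviations from group means correlated at 0.14 to 0.34 within a pool. Tg and WT libraries of the same title number and condition correlated at 0.11 to 0.26. Batch was not removed from these deviations, so the correlation within a pool is not specific to the pool. The edgeR fit had no term for the pairing by pool and treated the 12 libraries as independent, so its p-values do not allow for that pairing. Its estimate of spread drew on both libraries of each pool. Where the genotypes are compared within a condition, each library is a separate pool.

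The members and lists were chosen with earlier results of these data known. Named beside the members are the 2 most alike genes of each, genes with overlapping exons, paralogs, and up to 2 list genes with the largest change per comparison that passed the test.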

Additional observations from a re-analysis of the deposited data

How the results depend on the processing

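In LPS 0 of the 6 genes passed as lower in Tg under the alternatives, except by DESeq2 (1 gene, Fam181b, log2 difference -0.63, adjusted p = 0.0284). No fold change of the 6 genes changed sign under any alternative. In library batches 1 and 2, the log2 difference of Tg from WT in medium was -1.15 and -0.59 for Plpp1 and -0.60 and -1.09 for Piwil2. It was -1.21 and -1.55 for Fam181b, -0.73 and -0.53 for Serpinb9, -0.59 and -0.70 for Gk and -0.54 and -0.49 for Smim3. In LPS it was -0.41 and -0.77 for Fam181b, 0.10 and 0.28 for Plpp1, -0.33 and -0.35 for Piwil2, -0.31 and -0.28 for Serpinb9 and -0.23 and -0.22 for Gk. Over the alternatives, adjusted p-values between the genotypes in LPS ranged from 0.0284 to 0.696 for Fam181b, 0.0912 to 0.932 for Gk, 0.128 to 0.849 for Serpinb9 and 0.337 to 0.971 for Piwil2, and the log2 difference of Plpp1 from 0.10 to 0.31.

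Of the list genes, 44 passed with LPS in WT. With only the 6 libraries compared 29 passed, and without single libraries 28 to 43, the lowest without WT LPS 18. In medium 1 passed, against 7 by DESeq2, 0 with only the 6 libraries compared, 0 without pool Tg 19 (added after seeing the data) and 0 to 1 without single libraries. In LPS 0 passed, against 2 by DESeq2 and 0 to 1 without single libraries. The causes were not tested.

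With the replicate block on the pool, 46 list genes passed with LPS in WT, and with the title number in place of the batch also 46. That block gave 0 members in LPS and changed no call of a member. Over all genes, calls between the genotypes in medium moved from 23 lower and 23 higher to 223 and 278 by DESeq2, to 9 and 9 with no low-count filter, to 8 and 12 with only the 6 libraries compared, to 15 and 13 with no batch term, to 37 and 40 with the title number as block, to 1 to 23 lower without single libraries, and to 22 and 14 with the earlier edgeR estimate of spread, an alternative added after seeing the data. With 3 libraries a group, an exact permutation test cannot fall below 0.1.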
